A study of Rattus norvegicus with 23 samples.

Results

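miR-221 and miR-222 are a pair of microRNAs made from neighbouring hairpins on rat chromosome X, and they are described here by every read-count entry of either name in PC12 cells. The sRNAbench table of the study held 2 such entries of 413, miR-222-3p and miR-221-3p, and the 5p arms were not analysed there. A second count table of the same libraries, named for the Chimira tool, held 3 such entries of 627, with miR-221-5p as the third. In the sRNAbench table miR-222-3p had 34 reads of 60156183 over all 23 libraries, and miR-221-3p was listed at 0 in all 23. Of the 34 reads of miR-222-3p, 28 came from the 5 libraries taken 6 h after splitting. miR-221-3p had at most 3 reads in any library of either table.

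PC12 is a line from a rat adrenal tumour of chromaffin cells that is widely used as a neuronal model. One line stably carried a pcDNA3 construct for α1ACT, the transcription factor encoded within the CACNA1A mRNA, with 11 glutamine repeats and a 3xFlag tag at its C-terminus. The other line carried the empty pcDNA3 vector. Both lines went through the same transfection and G418 selection, the labels do not give the number of clones behind each line, and both grew in medium with horse and fetal bovine serum. Cells were harvested after a split, following 6 h, 24 h, 3 d or 10 d of growth. Each of the 8 groups of line and time had 3 libraries, apart from the vector line at 6 h, which had 2. Nothing in the labels says that replicates were separate cultures, so each p-value measures only the spread between these libraries, which may be technical. The labels name no growth factor given as a treatment, so the response to a growth factor for which the pair is known was not tested.

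The pair is transcribed as a single precursor in mammals, and both 3p arms carry the same seed, the stretch that pairs with target mRNAs. In many cell types the pair is induced by growth factors through ERK and AP-1, and it lowers the cyclin-dependent kinase inhibitor p27 and the receptor KIT. In PC12 cells, nerve growth factor raises both miRNAs through ERK, and they lower the cell-death protein Bim.

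The mature sequences are shown because the counts depend on whether the members can be told apart. They are from RefSeq, with coordinates on assembly GRCr8, and the capitals mark the seed, bases 2 to 8 from the 5′ end. Coordinates in order are chrX:6022682-6022702, chrX:6023246-6023268, chrX:6022642-6022662 and chrX:6023206-6023228, all on the plus strand.
miR-222-3p: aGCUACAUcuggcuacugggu
miR-221-3p: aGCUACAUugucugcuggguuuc
miR-222-5p: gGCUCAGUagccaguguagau
miR-221-5p: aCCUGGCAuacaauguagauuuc
The 3p arms share their first 8 bases and then differ, with 6 edits between the whole sequences. Of 724 mature rat sequences in the RefSeq table, 2 carry this seed, the 3p arms of the pair themselves. The nearest other mature sequence is 8 edits away from either 3p arm. The 5p arms do not share a seed with each other or with any other of the 724.

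The hairpins show where each arm lies, with the mature arms in capitals. Mir222 lies at chrX:6022621-6022723 and Mir221 at chrX:6023182-6023290 on the plus strand of GRCr8.
Mir222: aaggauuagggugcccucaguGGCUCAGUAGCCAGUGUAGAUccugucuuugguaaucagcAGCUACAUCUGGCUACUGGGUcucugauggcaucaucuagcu
Mir221: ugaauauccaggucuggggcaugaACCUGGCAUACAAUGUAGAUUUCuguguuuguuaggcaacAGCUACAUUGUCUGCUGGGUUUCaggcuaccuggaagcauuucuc
No annotated gene lies wholly between them. Both lie inside the spans of 2 long non-coding RNA genes, LOC120099382 and LOC120099384.

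Levels are given on a pair of depth-scaled units. RPM is the reads of a miRNA relative to the plain library total, and CPM is the same with each total adjusted by TMM, a scaling by the trimmed mean of log ratios between libraries. The libraries held 448557 to 5070120 counted reads in the sRNAbench table. By time the depth was 1850263 to 2300181 in the 6 h libraries, 1557147 to 3028200 in those of 24 h, 448557 to 3849102 in those of 3 d and 2056181 to 5070120 in those of 10 d. The endocrine miR-375-3p was the most abundant entry, at 116000 to 194000 CPM. All 5 neuroendocrine marker hairpins on the list (miR-375, miR-7a, miR-182, miR-183 and miR-96) had an entry. An entry can hold no reads, as that of miR-7a-2-3p did. Levels differed widely among these markers, with miR-182 averaging 31400 CPM and miR-7a-5p 5.86 CPM. Markers of liver, muscle, blood, endothelium, mesenchyme and oligodendrocytes had an entry for 11 of 16 hairpins. Among these, miR-143-3p of mesenchyme averaged 663 CPM, above miR-7a-5p. Over 99 abundant miRNAs, 21 of 23 libraries matched their own name between the tables. The vector library of 6 h replicate 2 and the vector library of 10 d replicate 2 matched each other across the tables. The names of these vector libraries are therefore in doubt, and vector results are read with this doubt.

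miR-222-3p ranked 303rd from the top among 413 entries, at 0.565 RPM, and 109 entries lay below it. The median entry with a count had 1010 reads. The most any library held was 11 reads, so no low-count filter in use kept either member (0 of 2), and the values of miR-222-3p rest on single-digit counts for nearly all libraries. The sRNAbench table holds no value of 1 in any of its entries, and its smallest value above 0 is 2. A library listed at 0 there may thus hold 0 reads or 1 read by that tool's own count, so no detection limit can be given from that table. By the Chimira count it may hold more. Chimira gave 2 reads of miR-222-3p in α1ACT 24 h replicate 3 and in vector 3 d replicate 2. It gave 3 reads of miR-221-3p in α1ACT 24 h replicate 1. All of these are listed at 0 in the sRNAbench table.

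**Figure D1:**
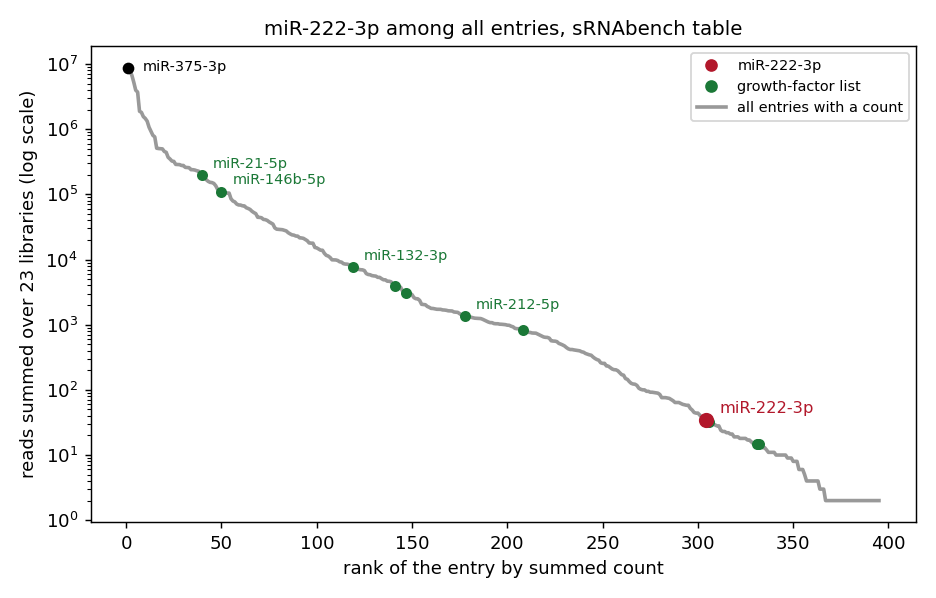
Reads summed over the 23 libraries (log axis) for each sRNAbench entry with a count, ordered by rank. miR-222-3p, at 34 reads, sits far below miR-375-3p at 8813376 reads and well below the median entry at 1010, while miR-21-5p, of the list of growth-factor-inducible miRNAs, lies at 197445 reads.

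miR-222-3p was highest at 6 h in both lines under the sRNAbench names, and most later libraries were at 0. In the α1ACT line at 6 h, the 3 libraries held 3, 11 and 4 reads of miR-222-3p, or 1.28, 5.26 and 2.11 CPM. At 24 h they held 2, 0 and 0 reads, and at 3 d and 10 d all 6 libraries were at 0. The 3 libraries of 6 h were all above the 9 later libraries of this line, and replicate 2 of 6 h was the highest of the 23. In the vector line, both 6 h libraries had reads, 4 and 6, or 1.80 and 2.64 CPM. Later vector libraries held 0, 0 and 2 reads at 24 h, 0, 0 and 2 at 3 d, and 0 in each of the 3 at 10 d. Within each line the 6 h libraries did not overlap the later ones, and 5 of 5 libraries of 6 h had reads, against 3 of 18 later libraries. With the doubtful vector pair exchanged, reads stood in 4 of 5 libraries of 6 h and 4 of 18 later ones, and the vector groups overlapped. Reads stood in 5 of 5 libraries of 6 h and 11 of 18 later ones in the Chimira table. The shallow vector library of 3 d replicate 1 is listed at 0, but 1 unlisted read there would stand for 2.23 RPM, so its place below the 6 h libraries is not shown. Of the 395 entries with a count, 3.29% had such a non-overlap in the α1ACT line, 4.05% in the vector line and 9 (2.28%) in both lines. It was met in each line by 1 of 123 entries with fewer than 100 reads (0.813%), which was miR-222-3p. The non-overlap was read from the counts of miR-222-3p and the 123 include it, so this share is no separate support for the pattern.

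**Figure D2:**
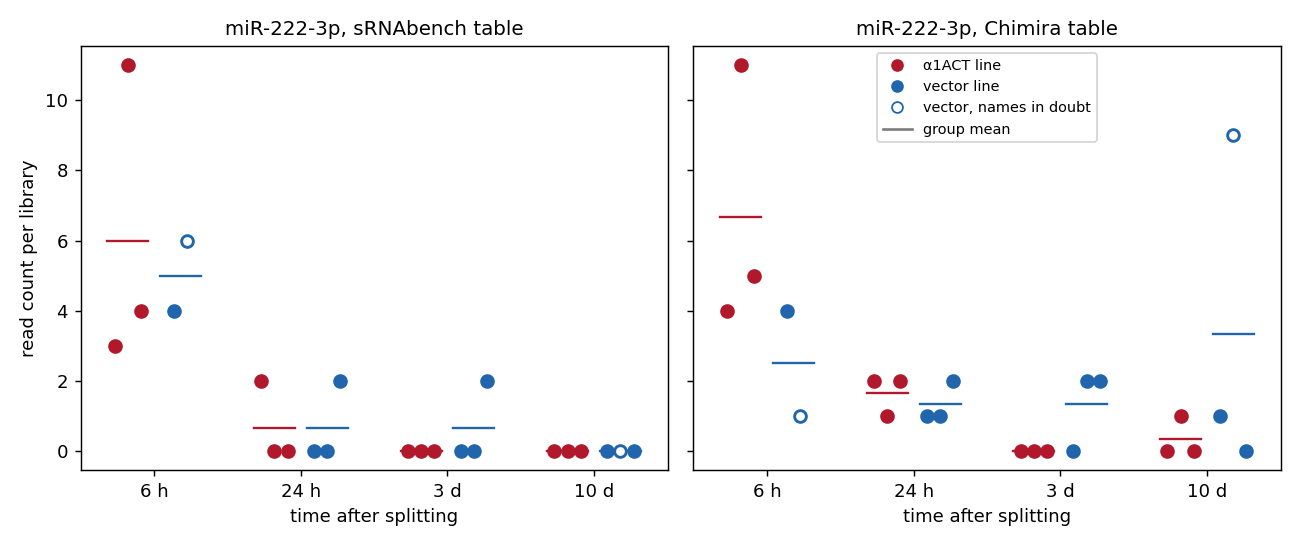
Read count of miR-222-3p in each library (points) and group means (bars) by time after splitting, for the sRNAbench and Chimira tables; open circles mark the vector libraries whose names disagree between the tables. In the sRNAbench table every 6 h library has 3 reads or more and every later one has at most 2, while in the Chimira table one open circle at 10 d has 9 reads.

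On the CPM scale, the α1ACT line averaged 2.89 ± 2.10 at 6 h and 0.211 ± 0.366 at 24 h (SD, n = 3 each), and was at 0 after 3 d and after 10 d. The vector line averaged 2.22 ± 0.591 at 6 h (SD, n = 2), 0.431 ± 0.746 at 24 h and 0.174 ± 0.301 after 3 d (SD, n = 3 each), and was at 0 after 10 d. In order of level, the group means ran from the α1ACT line at 6 h and the vector line at 6 h down to both lines at 24 h and then to the rest. The SDs of the 6 h groups overlap each other, and those of the groups from 24 h on overlap each other, so no order within these sets is shown. The SD of the α1ACT line at 6 h also overlaps that of the vector line at 24 h, so the SDs do not fully part the sets.

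Over the later times together, miR-222-3p differed from 6 h in the α1ACT line by -2.82 CPM, with an exact two-sided permutation p of 0.00455, the smallest this design can give (adjusted over 6 tests, p = 0.0136). Without replicate 2 of 6 h it was -1.68 CPM. The later times of the vector line differed from 6 h by -2.02 CPM (exact two-sided permutation p = 0.0182, again the smallest possible, adjusted p = 0.0273). This comparison of later times with 6 h was chosen after the counts were seen, so its p-values are not independent of the pattern. The test of any difference among the 4 times gave an exact permutation p of 0.0182 in the α1ACT line (adjusted p = 0.0273) and 0.0364 in the vector line (adjusted p = 0.0436). Summed reads were 2 in the later α1ACT libraries (0.0828 RPM) and 18 in those of 6 h (2.93 RPM), 35.4-fold lower with a 95% interval of 8.47 to 314. Replicate 2 gave 11 of the 18 reads of 6 h, and without it the fold was 20.4 (3.88 to 201). Both later reads came from 24 h replicate 1, and without it no later α1ACT library had a read. In the vector line they were 4 later (0.158 RPM) and 10 at 6 h (2.22 RPM), 14.1-fold lower with an interval of 4.07 to 61.6. The vector fold was 26.5 without 24 h replicate 3 and 23.9 without 3 d replicate 3, the libraries with the later reads. The mean over both lines was -2.42 CPM (exact two-sided permutation p = 8.26e-05, the smallest possible, adjusted p = 0.000496). It was -1.61 CPM with the doubtful vector pair exchanged (exact permutation p = 0.0106, adjusted p = 0.0317) and -1.56 CPM in the Chimira table (exact permutation p = 0.0221, adjusted p = 0.0443). The fold intervals cover counting error only, since no molecular identifiers were counted. A later library listed at 0 may hold 1 read, or more by the Chimira count, which the intervals leave out.

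With edgeR's quasi-likelihood test over all 395 entries with a count, the change with time of miR-222-3p passed the threshold of an adjusted p under 0.05 in the α1ACT line (adjusted p = 0.00477) and over both lines (adjusted p = 0.000229). It did not pass in the vector line (adjusted p = 0.0853). Of the 395 entries, 27.6% passed this test in the α1ACT line, 41.0% over both lines and 22.8% in the vector line. At 10 d against 6 h, miR-222-3p fell by 2.89 CPM in the α1ACT line (edgeR, adjusted p = 0.00915) and fell by 2.22 CPM in the vector line (edgeR, adjusted p = 0.048). Of all entries, 9.62% were called lower in that comparison in the α1ACT line, and 4.56% in the vector line. The vector call was lost on leaving out any of 13 of the 23 libraries in turn, with adjusted p-values of 0.0367 to 0.287 over the 23. The vector difference was 0.366 CPM in the Chimira table and -0.0218 CPM in the sRNAbench table with the doubtful pair exchanged, which also took the test of time over both lines to an adjusted p of 0.142. The change by 24 h was -2.68 CPM in the α1ACT line (edgeR, adjusted p = 0.138) and -1.79 CPM in the vector line (edgeR, adjusted p = 0.659), neither past the threshold. Of all entries, 5.06% were called lower at 24 h in the α1ACT line and 0.506% in the vector line. From 24 h on, the steps were small and none passed. At 3 d against 24 h the α1ACT line differed by -0.211 CPM (edgeR, adjusted p = 0.584; 8.1% of entries called lower) and the vector line by -0.257 CPM (edgeR, adjusted p = 1.0; 5.57%). At 10 d against 3 d the vector line differed by -0.174 CPM (edgeR, adjusted p = 0.491; 8.61%), and the α1ACT line was at 0 at both times (7.85%). Without replicate 2 of 6 h, the library with 11 reads, the 10 d difference of the α1ACT line was -1.75 CPM (edgeR, adjusted p = 0.0681) and its test of time gave an adjusted p of 0.105. The exact permutation test of time in that line gave p = 0.0182 (adjusted p = 0.0273) without any 1 of its 6 h libraries. With nearly all later values at 0, that p does not show how far the pattern rests on replicate 2.

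In the sRNAbench table no difference in miR-222-3p between the α1ACT line and the vector line passed a test. The difference was 0.0683 CPM as the mean over the 4 times (exact two-sided permutation p = 0.945). At 6 h the difference was 0.666 CPM, with 2.89 ± 2.10 CPM in the α1ACT line and 2.22 ± 0.591 in the vector line (SD, n = 3 and n = 2; edgeR, adjusted p = 1.0). The line difference was -0.219 CPM at 24 h (edgeR, adjusted p = 1.0) and -0.174 CPM at 3 d (edgeR, adjusted p = 0.883), and both lines were at 0 at 10 d. Of all entries, 0.253% were called between the lines at each of 6 h, 24 h and 3 d, and 1.01% at 10 d. The interaction of line and time gave an adjusted p of 1.0 with edgeR (0.0% of entries called). In the Chimira table the interaction gave an adjusted p of 0.048 with edgeR, and with the doubtful vector pair exchanged there it gave 1.0. The other p-values do not show that the lines are alike, since a few reads carry every value. In bulk RNA, fewer cells with the miRNA and less of it per cell cannot be told apart.

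The Chimira table, which does hold values of 1, also had its highest α1ACT counts of miR-222-3p at 6 h. The 3 libraries of each time held 4, 11 and 5 reads of miR-222-3p in the 6 h group, 2, 1 and 2 at 24 h, none at 3 d, and 0, 1 and 0 in the 10 d group. The 6 h libraries were again above all later ones of the line, and 24 h lay between 6 h and 3 d. Later libraries summed to 6 reads (0.244 RPM), against 20 at 6 h (3.19 RPM), 13.1-fold lower with a 95% interval of 5.06 to 39.7. Without replicate 2 of 6 h the fold was 8.69 (2.76 to 29.7). The exact permutation test of time in this line gave p = 0.000649 (adjusted p = 0.0039). In this table the floor for a library at 0, as 3 counts of its total, was 1.26 to 1.46 RPM for the α1ACT libraries of 3 d.

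For the vector line the tables differed. Chimira gave 4 and 1 reads at 6 h, 1, 1 and 2 at 24 h, 0, 2 and 2 at 3 d, and 1, 9 and 0 at 10 d. The 1 read of 6 h and the 9 reads of 10 d are the pair whose names disagree. With the names as they stand, later vector libraries held 0.721 RPM, against 0.919 RPM at 6 h, 1.28-fold lower with a 95% interval of 0.37 to 3.56, and the exact permutation test of time gave an adjusted p of 0.938. That fold was 0.444 without replicate 1 of 6 h, and 2.40 or 2.32 without the doubtful library of 6 h or of 10 d. With this pair exchanged in the Chimira table, the values were 0.387 RPM later and 2.83 RPM at 6 h, 7.31-fold lower with an interval of 2.96 to 18.6. With the pair exchanged in the sRNAbench table instead, they were 0.408 RPM later and 0.749 RPM at 6 h, 1.84-fold lower with an interval of 0.42 to 6.37. The later vector libraries were thus below 6 h by more than the counting interval under the sRNAbench names, in either table, and not under the Chimira names. The α1ACT counts are the same under both sets of names. Without both doubtful libraries the vector line has 1 library at 6 h, and the later libraries differed from it by -1.57 CPM (exact permutation p = 0.111, the smallest possible there).

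miR-221-3p was listed at 0 in all 23 sRNAbench libraries, and had 14 reads of 61237960 in the Chimira table (0.229 RPM), where miR-222-3p had 49 (0.8 RPM). Its Chimira reads in the α1ACT line were 3, 1 and 2 at 24 h and 0, 1 and 1 at 3 d, with 0 at 6 h and at 10 d. In the vector line it had 0, 1 and 0 at 24 h, 0, 2 and 0 at 3 d and 0, 3 and 0 at 10 d, and 0 at 6 h. The 3 reads at 10 d in the vector line come from the doubtful library that also held 9 reads of miR-222-3p, and both would stand at 6 h under the exchange. The exact permutation test of time in the α1ACT line gave p = 0.0136 (adjusted p = 0.0818), and the lines differed by 0.0603 CPM (exact permutation p = 0.723). miR-221-5p had 2 reads in all, 1 in an α1ACT library and 1 in a vector library of 24 h. Ratios of the arms and the ratio of miR-221 to miR-222 were not computed, since nearly all of these counts are 0.

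Depth and markers of other cell types are given here beside the change with time. The libraries of 10 d, all at 0 for miR-222-3p in the sRNAbench table, held 2056181 to 5070120 reads, against 1850263 to 2300181 at 6 h. The summed level of the markers of other cell types lay at 434 to 883 CPM in the later α1ACT libraries and 583 to 834 CPM at 6 h, and at 544 to 1470 CPM in the later vector libraries and 790 to 1230 CPM at 6 h. In the α1ACT line the endothelial markers lay at 96.5 to 123 CPM later and 76.1 to 86.5 CPM at 6 h, ranges that do not overlap. The share of all entries with a non-overlap in this direction is not given here. In the vector line the endothelial ranges overlapped, at 93.3 to 138 CPM later and 86.2 to 107 CPM at 6 h. The blood, mesenchyme and oligodendrocyte sums also overlapped between 6 h and later in the α1ACT line. The part of these markers in the change of miR-222-3p was not tested. The liver marker on the list had no entry, so no level can be given for it. The muscle marker with an entry, miR-133a-3p, reached 0.387 CPM in a later α1ACT library.

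Most other miRNAs known to be induced by growth factors, ERK, AP-1 or CREB had many more reads than the pair. The list had 7 hairpins (miR-21, miR-31, miR-132, miR-146a, miR-146b, miR-155 and miR-212) with 10 entries, of which 7 were tested after the low-count filter. miR-155 was not analysed here. miR-21-5p, a growth-factor and AP-1 target in many cells, averaged 3050 ± 468, 3290 ± 270, 3060 ± 398 and 3510 ± 201 CPM at the 4 times in the α1ACT line (SD, n = 3 each). miR-31a-5p and miR-146a-5p, at 15 reads each over all libraries, had fewer reads than miR-222-3p. Like the pair, they were not kept by the low-count filter, nor was miR-146b-3p at 32 reads.

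Between the lines, as the mean over the 4 times, 0 of 7 tested list members passed (edgeR, adjusted p under 0.05; 12.6% of 269 tested), with a median log2 difference of 0.15, against 0.001 over all tested. The lowest adjusted p in that list was 0.118. At 10 d against 6 h, 1 of 7 was called, lower, in the α1ACT line (27.1% of all were called, 11.2% higher and 16.0% lower) and 1 of 7, lower, in the vector line (11.9%, 5.2% higher and 6.69% lower). The miRNA was miR-212-5p in each. Median log2 changes were 0.08 in the α1ACT line and 0.05 in the vector line, against -0.008 and 0.024 over all tested. Over both lines together, 4 of 7 passed the test of time (59.9% of all): miR-132-3p, miR-146b-5p, miR-21-3p and miR-212-5p. miR-212-5p, an arm of a CREB-responsive hairpin, averaged 43.6 ± 6.84, 24.0 ± 3.25, 16.1 ± 2.90 and 20.3 ± 3.75 CPM at the 4 times in the α1ACT line (SD, n = 3 each). It was lower at 10 d than at 6 h, with a log2 change of -1.12 in the α1ACT line (SE 0.208, edgeR, adjusted p = 0.000175) and -1.03 in the vector line (SE 0.229, edgeR, adjusted p = 0.00216). The vector averages were 34.3 ± 0.0375 (SD, n = 2), 26.7 ± 1.63, 11.3 ± 2.75 and 16.4 ± 1.56 CPM (SD, n = 3 each). The vector change was -0.07 in the Chimira table and 0.0 with the doubtful pair exchanged, and it was -1.02, not past the threshold, with both of these libraries left out. miR-212-3p, the other arm, averaged 52.9 ± 7.6 CPM at 6 h and 62.9 ± 14.4 CPM at 10 d in the α1ACT line (SD, n = 3 each) and was not called.

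The miR-17-92 cluster and its paralogs, linked to proliferation, gave 16 tested entries of 20 from 10 hairpins. Between the lines 1 of 16 passed, miR-25-3p, lower with a log2 difference of -0.18 (edgeR, adjusted p = 0.0195; 5.95% of all tested were lower). That call was lost in 12 of 35 other settings, over which the value lay between -0.20 and -0.09. At 10 d against 6 h, the α1ACT line had 1 of 16 called higher (11.2% of all tested), miR-93-5p with a log2 change of 0.36 (edgeR, adjusted p = 0.0188). It had 3 called lower (16.0% of all), miR-92a-3p at -1.0, miR-93-3p at -0.87 and miR-106b-3p at -0.31 (edgeR, adjusted p = 4.16e-07, 0.0188 and 0.0437). The call of miR-92a-3p was kept in all 35 other settings, while those of miR-93-5p, miR-93-3p and miR-106b-3p were lost in 5, 4 and 19 of them. In the vector line 1 of 16 was higher (5.2% of all), miR-93-5p at 0.45, and 1 lower (6.69%), miR-92a-3p at -0.90 (edgeR, adjusted p = 0.0188 and 1.66e-05). With the doubtful pair exchanged neither was called, at 0.04 for miR-93-5p and -0.36 for miR-92a-3p, nor in the Chimira table, at -0.04 and -0.41. The share of all tested called in the vector line under these settings is not given here. Leaving out both doubtful libraries, which leaves 1 vector library at 6 h, gave 0.2 for miR-93-5p and -1.2 for miR-92a-3p. The median log2 change of the 16 was -0.18 in the α1ACT line and -0.12 in the vector line, against -0.008 and 0.024 over all tested. Over both lines, 10 of 16 passed the test of time, against 59.9% of all tested. With the pair exchanged 7 of 16 passed. The share of all tested under the exchange is not given here, so that count has nothing to be set against.

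The miRNAs whose group means followed those of miR-222-3p most closely were found by Pearson's r over the 8 groups. The search covered 222 miRNAs averaging 10 CPM or more. The measure was changed to group means after values had been seen, since miR-222-3p has too few reads for a correlation over libraries, and it is a description with no test. Over the 222, r had a median of -0.03 and ran from -0.87 to 0.98. The 5 highest were miR-149-5p (r = 0.98), miR-503-3p (0.97), miR-125a-5p (0.93), miR-501-3p (0.92) and miR-674-3p (0.92). The 8 points share their libraries and scaling. miR-149-5p averaged 233, 135, 119 and 108 CPM at the 4 times in the α1ACT line and 206, 153, 130 and 111 CPM in the vector line (group means). Its log2 change at 10 d against 6 h was -1.11 (SE 0.140) in the α1ACT line (edgeR, adjusted p = 7.81e-07) and -0.88 (SE 0.153) in the vector line (edgeR, adjusted p = 0.000165). miR-501-3p had the largest fall of the 5, with a log2 change of -2.54 (SE 0.307) in the α1ACT line and -1.41 (SE 0.317) in the vector line. In the vector line the calls of 4 of the 5 were lost with the doubtful pair exchanged (edgeR, adjusted p = 0.993 each). miR-92a-3p and miR-93-5p, outside the 5, lost theirs too. The share of all tested called under the exchange is not given here, so the loss is not shown to be particular to these miRNAs. The log2 changes were then 0.02 for miR-149-5p, -0.18 for miR-503-3p, -0.18 for miR-501-3p and 0.18 for miR-674-3p. In the Chimira table they were -0.05, -0.22, -0.22 and 0.11 in this order. With the pair exchanged there they were -0.89, -0.99, -1.42 and -0.86. Leaving out both doubtful libraries, which leaves 1 vector library at 6 h, gave -0.86, -1.19, -1.46 and -0.72 in the same order. The fifth, miR-125a-5p, was not called in that line, at -0.51 (SE 0.226, edgeR, adjusted p = 0.152).

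**Figure D3:**
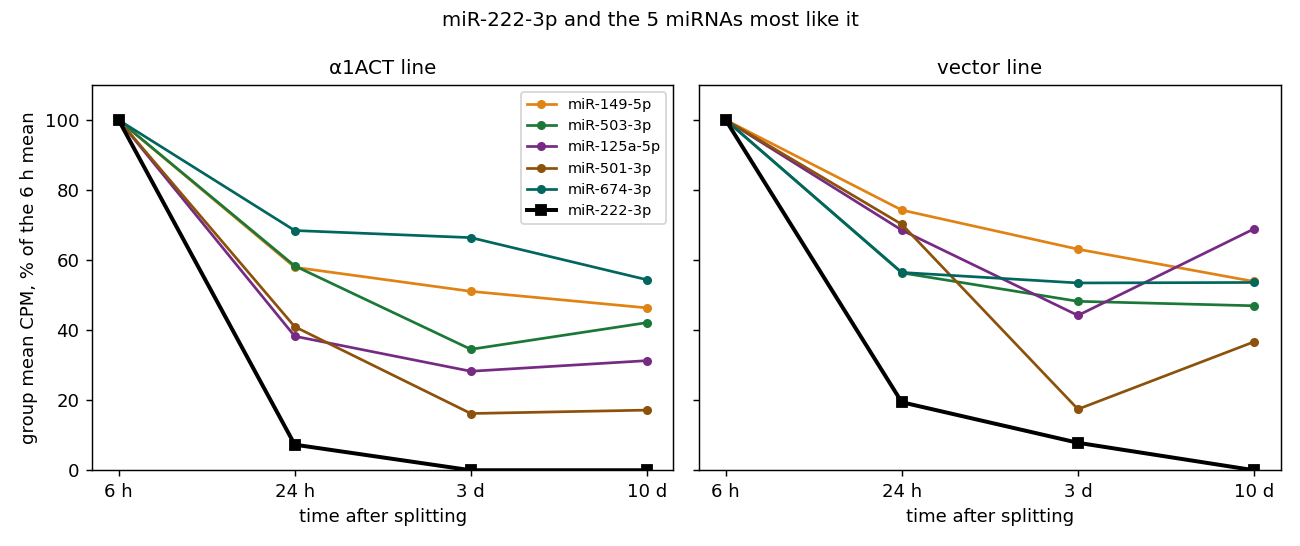
Group mean CPM as a percentage of the same line's 6 h mean, by time after splitting, for miR-222-3p (black squares) and the 5 miRNAs with the highest correlation to it over the 8 group means. Under the sRNAbench names all 6 are highest at 6 h in both lines, and miR-222-3p is at 0 CPM by 10 d. The 5 were picked for following miR-222-3p over these same group means, so their shared peak at 6 h is not a separate result. A library listed at 0 in the sRNAbench table may hold 1 read, or more by the Chimira count, so how far miR-222-3p falls beside the others is not shown. In the Chimira table its means at 6 h and 10 d were 3.16 and 0.108 CPM in the α1ACT line. They were 1.02 and 1.39 CPM in the vector line, where the names of 2 libraries are in doubt.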

How the data were processed

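Small RNA libraries were sequenced with an Illumina protocol from a miRNA-enriched fraction, per the labels' protocols. The authors deposited a pair of tables of raw read counts, 1 row per mature miRNA, named for sRNAbench and Chimira. edgeR is named in the submitters' processing notes. Not given in the sources used here are the aligner, the miRBase release, the genome build and the tool versions. The vector line was read from columns headed control and the α1ACT line from columns headed WT, an assumption. Each table has 12 further columns, not used, and the sRNAbench table has 1 unnamed row with 0 counts, left out.

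Counts were scaled by TMM and fitted with edgeR 4.0.16 (R 4.3.3) over 8 groups and 23 libraries with quasi-likelihood tests, Benjamini-Hochberg adjusted. The common biological coefficient of variation was 16.1%. filterByExpr kept 269 of 413 entries and neither member, so the members were tested with no filter (395 entries) and by exact two-sided permutation of CPM, adjusted over 6 tests. Averages of fitted log means over groups at 0 were not used.

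The members and lists were chosen with earlier results of these data known. Named were the members, the 5 miRNAs most like miR-222-3p, and the listed miRNAs called in a comparison with a few more. The fit was tested on simulated data for entries kept by filterByExpr only, so that check does not cover the unfiltered fit of the members. No duplicate libraries were found (chi-square per degree of freedom 21.3 to 215). Replicate numbers did not pair the libraries: same-number deviations had a median r of 0.02 to 0.09, and 10 of 23 libraries correlated best with their own number. Alternatives were the Chimira table, other scalings, DESeq2 1.42.0, limma-voom (limma 3.58.1), a replicate block, each library left out, and the doubtful vector pair exchanged or left out. The exchange within the Chimira table was chosen after seeing the data.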

Additional observations from a re-analysis of the deposited data

How the results depend on the processing

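For miR-222-3p, 22 results were recomputed under 713 alternative values in all. Of these, 668 stayed on the same side of the threshold, 37 no longer passed, 7 newly passed and 1 reversed. A change of sign was counted as reversed where either value passed, and as unchanged where neither did. The line difference at 6 h, which passed in no setting, ran from -0.398 to 2.14 CPM. Tests of time have no direction. The permutation comparison of later times with 6 h in the α1ACT line lay between -3.62 and -1.68 CPM on leaving out each library; it was at the smallest p its design allows throughout, so its calls say nothing about stability. With the vector pair exchanged, the edgeR test of time over both lines gave an adjusted p of 0.142; the interaction gave 0.048 in the Chimira table. The difference of 24 h and 6 h in the α1ACT line passed at -2.53 CPM in the Chimira table, with or without the exchange, and at -2.68 by limma-voom. The difference of 10 d and 6 h in the vector line reversed to 0.366 CPM in the Chimira table, where it did not pass. It no longer passed with DESeq2 (-2.22) or with the exchange (-0.0218), and was -1.80 CPM with both libraries left out. Besides the Chimira table, 17 of 34 settings lost the call, 13 of them by leaving out 1 library. The numbers do not pair the libraries; with a replicate block that difference was -2.22 CPM (edgeR, adjusted p = 0.0747), and no other call on miR-222-3p changed. The edgeR test of time in the vector line passed by limma-voom (0.00757) and in the exchanged Chimira table (0.00465). The permutation test of time there gave adjusted p-values of 0.938 in the Chimira table, 0.877 exchanged and 0.200 with both left out, and the later libraries differed from 6 h by -0.203, -0.407 and -1.57 CPM under these settings. Leaving out each library in turn gave -3.69 to -1.75 CPM for 10 d against 6 h in the α1ACT line and -2.58 to -1.73 in the vector line, adjusted p of 0.0033 to 0.105 and 0.0468 to 0.358 for edgeR's test of time, 0.0436 to 0.150 for the vector permutation test of time, and -2.38 to -1.53 CPM for its later libraries. For miR-149-5p and miR-674-3p at 10 d against 6 h in the vector line, the log2 change reversed to 0.02 and 0.18 with the exchange, and miR-674-3p to 0.11 and miR-93-5p to -0.04 in the Chimira table. The cause of these changes was not tested. A low-count filter left no value for the members. At 448557 to 5070120 reads a library, values of the members rest on single reads.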
